A study of Zea mays with 4 samples.

Results

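The later primary root of maize (Zea mays, cultivar Zhengdan 958) was compared with the early primary root by small RNA sequencing of root tips. The early library (PRY) was made from seedlings at 3 days after germination, and the later library (PRO) at 15 days. The deposited table held 576 mature miRNAs, of which 102 reached 10 RPM (reads scaled to a total of 1000000 per library) in PRY, in PRO or in both, and these 102 are described here. Just inside the minimum were a candidate at 11.2 RPM and miR166a-5p at 11.8 RPM in their higher library, and just outside it miR169j-3p at 9.61 RPM and a candidate at 9.14 RPM. The 102 comprised 89 known miRNAs and 13 candidate miRNAs predicted by the authors, which are identified below by their values. All seedlings stood in Hoagland's nutrient solution in a greenhouse with no other treatment named, and tips of 1 cm were collected. PRY roots had been picked at 3 to 5 cm in length, and no such range is given for PRO. A seminal root library (SR, 7 days) and a crown root library (CR, 15 days) completed the series. Each group had 1 library and no replicate, so every difference compares libraries and carries no test across replicates. Age, root length and library were confounded, and their parts in a difference cannot be told apart.

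Plant miRNAs are cut as a duplex from a hairpin precursor, and usually the strand from one arm (5p or 3p) enters an Argonaute protein while the partner, the star strand, is degraded. The loaded strand guides cleavage or translational repression of transcripts that match it closely, many of which encode transcription factors. In plants miR156 and miR172 are known for opposite trends with age: miR156 is high in juvenile tissue and represses SPL factors, while miR172 is high later and represses AP2-like factors. In roots miR160, miR167, miR390 and miR393 act on auxin signalling, and miR164 and miR166 on root branching and radial patterning.

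The values of each library were whole multiples of a fixed step, which gave totals of 10721082 reads for PRY and 11057522 for PRO and let every value be read as a count. One read was worth 0.0933 RPM in PRY and 0.0904 in PRO. Ratios below are ratios of reads scaled to these totals, with 95% exact conditional binomial intervals in parentheses, and they cover counting error only. A miRNA was counted as higher or lower where log2(RPM + 1) differed by at least 1 between the libraries, a 2-fold difference on that scale. An entry under 10 RPM in 1 library passed the minimum through the other, which fixed its direction. In whole root tips a lower value can mean fewer cells of a type or less RNA per cell, and these cannot be told apart. As a check on other tissue, miR2118 and miR2275, triggers of reproductive phased siRNAs, were measured, and 11 of their 15 entries were at 0 in both libraries. The remaining 4 had 1 read at most. No marker of the root itself is in a table of miRNAs.

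Of the 102 miRNAs, 19 (18.6%) were higher in PRO and 17 (16.7%) were lower, 35.3% in all. The median difference was -0.17 on the log2 scale. Among known miRNAs 16 were higher and 16 lower, with 57 neither. Of the 46 entries from the 5p arm, 31 lay above their PRY level, with a median of 0.48, and 31 to 36 did so over 6 scalings of the libraries. Of the 35 entries from the 3p arm, 25 lay below their PRY level, with a median of -0.44. That side depended on the scaling, since 13 of the 35 lay below with the total over distinct miRNA entries, with a median of 0.07. By abundance, 12 of the 13 entries whose higher library lay between 500 and 5000 RPM were above their PRY level. Apart from miR156k-5p, miR166l-3p and the most abundant candidate, all 13 were 5p entries of miR167, so the count mostly reflects that family. Of the 23 entries above 5000 RPM, 21 were below it with the library total and 10 with the total over distinct entries, all 10 of miR156. Members of a family share reads, and the 102 entries held only 81 distinct pairs of values, so these counts are not independent. Another scaling of the libraries moved the median to between -0.10 and 0.33, as described at the end, and raises every difference given here by up to 0.51.

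**Figure D1:**
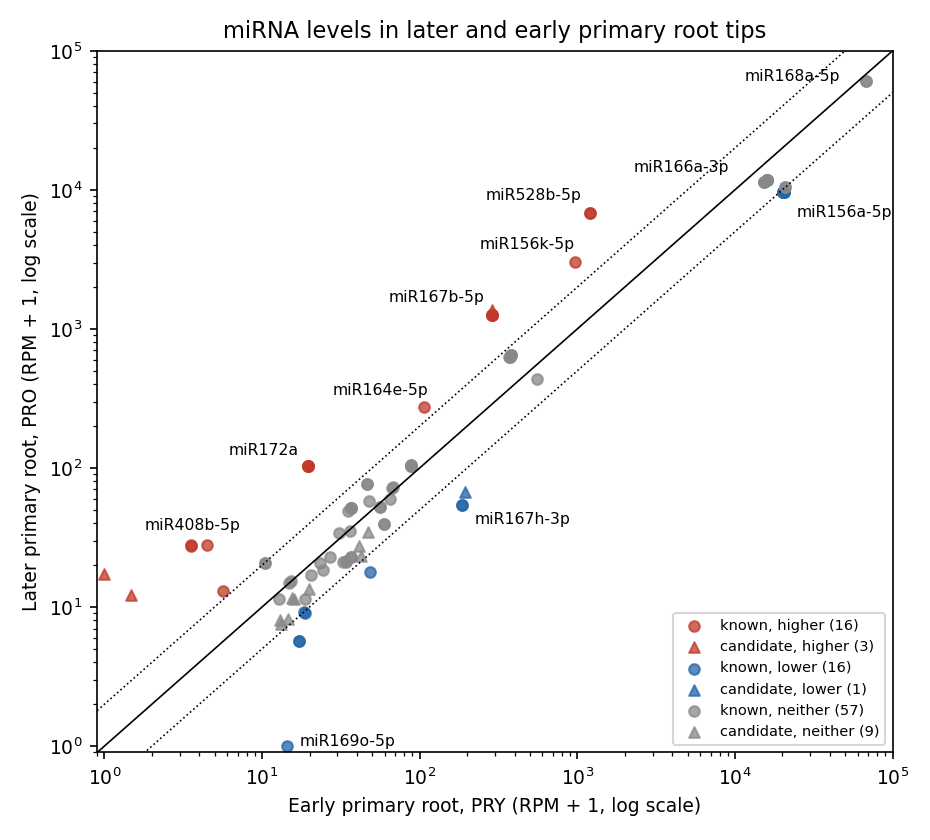
Level of each of the 102 miRNAs in PRY (horizontal axis) and PRO (vertical axis), both as RPM + 1 on log scales, with circles for known miRNAs, triangles for candidates and colours for the size rule. The solid line marks equal levels and dotted lines a 2-fold difference; miR528b-5p, at 6830 against 1203 RPM, lies farthest above the line among abundant miRNAs, and miR169o-5p lies at 0 RPM in PRO.

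In the phase change families, all 6 miR172 entries at the minimum lay above their PRY level. Of the 13 miR156 entries at the minimum, 11 lay below it and 2 above. The 31 entries of miR156 and miR172 included 19 at the minimum, of which 7 were higher and 9 lower, with a median of -0.98, against 18.6% and 16.7% and a median of -0.17 for all 102. Among the 7, miR172b-5p and miR172d-5p had nearly equal values. Both passed the minimum through PRO alone, so their direction was fixed by that choice. The 7 were counted under all 6 scalings, but the 5 other scalings raise PRO and could not end those calls. The 9 became 0 or 1 under 4 of the 5. miR172a stood at 18.5 RPM in PRY and 102.9 in PRO, on 198 and 1138 reads, and was 5.57-fold higher (4.79 to 6.51). The entries miR172b-3p, miR172c-3p and miR172d-3p carried exactly the same values, so these 4 entries amount to a single measurement. The abundant miR156a-5p went the other way, from 20450 RPM in PRY to 9686 in PRO, and was 2.11-fold lower (2.10 to 2.13). Other scalings put it between -1.01 and -0.57 on the log2 scale and ended the call in 4 of 5 cases. A ratio taken within each library does not depend on how the libraries are scaled. There were 1107 reads of miR156a-5p for each read of miR172a in PRY and 94.1 in PRO, an 11.8-fold change in their balance (10.1 to 13.7, log-normal interval).

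The miR156 family was not uniform. Its 13 entries at the minimum fell into a large block with nearly equal values and 3 entries apart from it. In the block, 8 entries stood between 20284 and 20450 RPM in PRY and between 9603 and 9686 in PRO. miR156b-5p and miR156d-5p were slightly above them, and at 1.98-fold lower (1.96 to 1.99) they just missed the size rule. miR156d-5p exceeded miR156a-5p by 351 RPM in PRY and by 841 RPM in PRO. That excess went against the direction of the rest of the value and made up 1.69% of miR156d-5p in PRY and 7.99% in PRO. How reads that match several members were assigned is not given in the sources used here, so the excess is an arithmetic difference between entries and not a measured miRNA. miR156k-5p was clearly higher, at 966 RPM in PRY and 3040 in PRO, a ratio of 3.15 (3.08 to 3.22). For every read of miR156k-5p there were 21.2 reads of miR156a-5p in PRY and 3.19 in PRO. miR156j-5p stood at 46.4 and 57.1 RPM and was 1.23-fold higher (1.09 to 1.39), within the size rule. The star strand miR156b-3p was 2.80-fold lower (2.36 to 3.32), at 17.0 RPM in PRO against 47.6, and the star strands of miR156d, miR156f and miR156g differed by less, with 35 to 37 reads in each library.

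**Figure D2:**
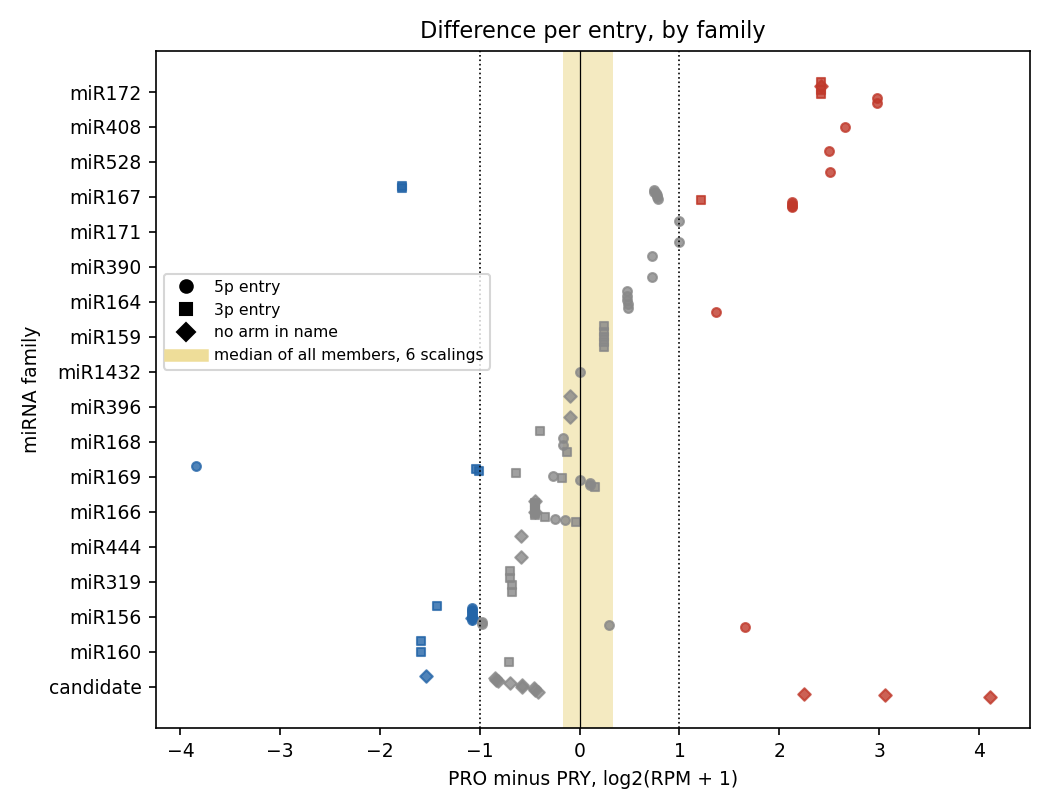
Difference between PRO and PRY in log2(RPM + 1) for each of the 102 entries (points), by family, with circles for 5p entries, squares for 3p entries and diamonds for entries whose name gives no arm. Red and blue mark entries past the dotted lines at 1 and -1, and the shaded band spans the median of all entries under 6 scalings, from -0.17 to 0.33. miR172 lies wholly to the right, while miR156 and miR167 hold entries on both sides.

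Among miRNAs of auxin signalling, miR167 split by member and by arm. It targets auxin response factors of the ARF6 and ARF8 type. The 5p entries of members a to d were 287 to 288 RPM in PRY and 1255 to 1258 in PRO, with a ratio of 4.37 (4.21 to 4.55) for miR167a-5p. The 5p entries of members e to j began higher, at 368 to 377 RPM in PRY, and reached 625 to 648 in PRO. miR167j-5p was 1.72-fold higher (1.65 to 1.79), which the size rule did not count with the library total. With the total over distinct entries or TMM factors, all 6 entries e to j were counted as higher. As a result the a to d group lay below the e to j group in PRY and above it in PRO. The ratio of miR167a-5p to miR167j-5p was 0.760 in PRY and 1.94 in PRO, a 2.55-fold change (2.41 to 2.69). In the opposite direction, the star strands miR167h-3p and miR167i-3p, which shared 1 set of values, went from 185 RPM in PRY to 53.3 in PRO, 3.47-fold lower (3.16 to 3.81). The star strand miR167b-3p was 2.60-fold higher (1.86 to 3.67), at 12.1 against 4.66 RPM, and passed the minimum through PRO alone. Below the minimum, miR167g-3p counted 19 reads in PRO and 0 in PRY, at least 6.14-fold higher against a floor of 3 reads.

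Other families of this list differed by less or rested on few reads. The list of 43 entries had 18 at the minimum, 5 of them higher and 4 lower, with a median of 0.76, against 18.6% and 16.7% and a median of -0.17 overall. All 5 higher ones belonged to miR167, and miR167a-5p to miR167d-5p among them had nearly equal values. The remaining one, miR167b-3p, passed the minimum through PRO alone. Of the 4 lower ones, miR160b-3p and miR160g-3p passed it through PRY alone. The direction of these entries was fixed by that choice. Under other scalings the higher count was 5 to 13, with miR390a-5p and miR390b-5p among the 13. miR160, which targets the ARF10, ARF16 and ARF17 group, was represented at the minimum by 3p entries alone. miR160b-3p had 173 reads in PRY and 52 in PRO, 3.43-fold lower (2.50 to 4.77), and miR160g-3p had the same counts. miR160a-3p, at 17.7 RPM in PRY and 10.5 in PRO, was 1.69-fold lower (1.33 to 2.15). Its 5p strand, which matches the targets, had 33 reads in PRY and 37 in PRO, a ratio of 1.09 (0.66 to 1.79). miR390a-5p, which starts production of tasiRNAs against ARF3-type factors, went from 45.1 to 75.4 RPM, 1.67-fold higher (1.49 to 1.87). For miR393, which targets TIR1-type auxin receptors, every value was below the minimum. Reads of miR393b-5p numbered 2 in PRY and 19 in PRO, a ratio of 9.21 (2.22 to 81.6), while miR393a-5p had 20 and 38.

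Both arms of a hairpin could be followed where each had at least 50 reads over the libraries. Leaving out miR395, whose PRY counts were 1 or 2 reads, this gave 25 hairpins with distinct values. The ratio of the arm with fewer reads over both libraries to the other arm is free of library scaling. It was lower in PRO with an interval below 1 in 9 hairpins, higher with an interval above 1 in 8, and its interval spanned 1 in 8. Reads shared among members enter several of these ratios, so the hairpins are not independent. The widest departures were in miR167h, miR167i, miR408b and miR160. In miR167h the 3p strand made up 33.1% of the reads of both arms in PRY and 7.81% in PRO, so its ratio to the 5p strand was 0.171 of the early value (0.155 to 0.189). In miR160b the 5p strand made up 16.0% in PRY and 41.6% in PRO, a 3.73-fold change of the ratio (2.13 to 6.55). In miR172b both strands were higher, the 5p strand more so, at 26.7 RPM against 2.52, 10.6-fold (7.13 to 16.4). It made up 12% of both arms in PRY and 20.6% in PRO. The 5p strand had passed the minimum of 10 RPM through PRO alone, so its direction was fixed by that choice. miR168b and miR169c kept nearly equal proportions, with 3p shares of 0.095% and 0.097% for miR168b and of 30.8% and 31.5% for miR169c in PRY and PRO.

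**Figure D3:**
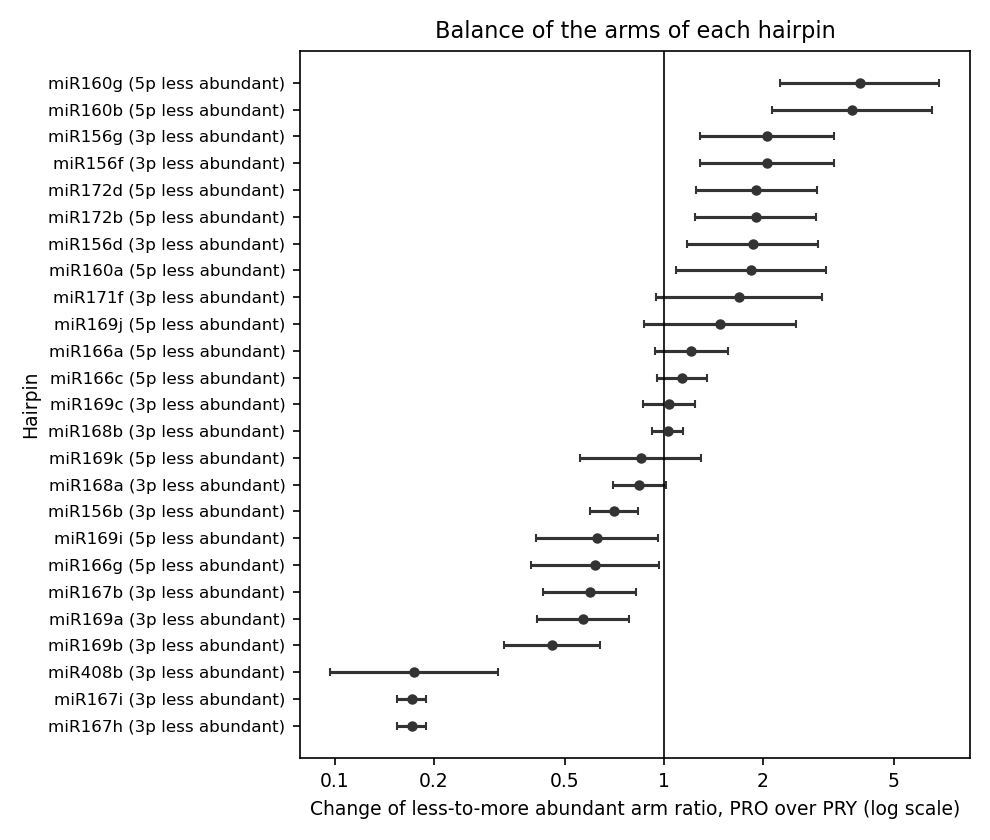
Change from PRY to PRO in the ratio of the less abundant arm to the more abundant arm of 25 hairpins (points, log scale) with 95% log-normal intervals from the read counts (bars). The vertical line marks no change. miR167h and miR167i lie at 0.171 and miR160g lies at 3.93.

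The copper-responsive list concerns miRNAs that in plants accumulate at low copper and target transcripts of copper proteins, and 3 of its 15 entries reached the minimum. All 3 were higher, against 18.6% of all 102, with a median of 2.50 against -0.17. Of the 3, miR528a-5p and miR528b-5p had nearly equal values, at 6788 and 6830 RPM in PRO, so they amount to about a single measurement. The other, miR408b-5p, passed the minimum through PRO alone, so its direction was fixed by that choice. miR528, a family known from monocots, was the most abundant of this list. miR528b-5p stood at 1203 RPM in PRY on 12894 reads and at 6830 RPM in PRO on 75524 reads, a ratio of 5.68 (5.57 to 5.79). Relative to miR168a-5p of the same library, it was 6.38-fold higher (6.26 to 6.51). The entries for members a and b differed by 24 reads in PRY and by 471 in PRO, which is again an arithmetic difference between entries. The star strand miR528a-3p had 0 reads in PRY and 9 in PRO. From 3.45 RPM in PRY, miR408b-5p reached 27.1 RPM in PRO, 7.86-fold more (5.58 to 11.4). The strand known to target plantacyanin and laccase transcripts, miR408b-3p, had 29 reads in PRY and 41 in PRO, a ratio of 1.37 (0.83 to 2.29). The ratio of the 5p to the 3p strand of miR408b was 1.28 in PRY and 7.32 in PRO, a 5.74-fold change (3.19 to 10.3). Transcripts of copper/zinc superoxide dismutase are targets of miR398, and miR398a-3p counted 2 reads in PRY and 25 in PRO, a ratio of 12.1 (3.02 to 106). miR397b-3p, of the laccase-targeting family, had 8 and 12, a ratio of 1.45 (0.55 to 4.10).

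In the meristem and patterning list, 42 of 145 entries reached the minimum. Of these, 1 was higher, 3 were lower and 38 were neither, against 18.6% higher and 16.7% lower of all 102. The median was -0.16, against -0.17 for all 102. Each of the 5 other scalings counted 3 entries of the list as higher and 1 as lower. The 3 lower entries with the library total, all of miR169, passed the minimum through PRY alone. Their direction was fixed by that choice. The higher one was miR164e-5p, from the family that targets NAC factors of the CUC and NAC1 type. It stood at 105 RPM in PRY and 273 in PRO, 2.59-fold higher (2.42 to 2.78). The other 5 miR164 entries at the minimum had 34.3 to 35.8 RPM in PRY and 48.1 to 50.3 in PRO, and miR164a-5p was 1.41-fold higher (1.23 to 1.61). Per read of miR164a-5p there were 2.95 reads of miR164e-5p in PRY and 5.43 in PRO, a 1.84-fold change (1.59 to 2.13).

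miR166, which represses class III HD-ZIP factors, had 13 entries at the minimum and all were below their PRY level with the library total, by -0.45 to -0.03 on the log2 scale. With the total over distinct miRNA entries as scaling, the family median turned to 0.07. miR166a-3p stood at 15878 RPM in PRY and 11684 in PRO, 1.36-fold lower (1.35 to 1.37). Against miR168a-5p of the same library it was 1.21-fold lower (1.20 to 1.22). miR166l-3p stood at 555 and 435 RPM, with 28.6 reads of miR166a-3p for each of its reads in PRY and 26.9 in PRO, a 1.06-fold change (1.02 to 1.11).

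The family that targets NF-YA subunits, miR169, held the entry with the lowest ratio. The 143 reads of miR169o-5p in PRY stood against none in PRO, which with a floor of 3 reads makes it at least 49.2-fold lower. It had 7 reads in SR and 0 in CR. It passed the minimum through PRY alone, so its direction was fixed by that choice. Its star strand went from 8 reads to 0. miR169a-3p and miR169b-3p were lower by 2.13-fold (1.65 to 2.77) and 2.19-fold (1.69 to 2.85), calls made with the library total alone, while the 5p strands of both members differed by less, with ratios of 0.825 (0.671 to 1.013) and 1.00 (0.80 to 1.26). The most abundant entry, miR169c-5p, stood at 66.8 and 71.6 RPM, a ratio of 1.07 (0.97 to 1.19).

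Among the remaining families of the list, miR171, which represses GRAS factors of the HAM type, was higher in both arms of members h and k. miR171h-5p stood at 9.42 and 19.7 RPM, 2.09-fold higher (1.65 to 2.68), and at 0.99 on the log2 scale it narrowly missed the size rule. Under each of the 5 other scalings it was counted as higher, at up to 1.48. It passed the minimum through PRO alone, so its direction was fixed by that choice. miR171h-3p had 4 reads in PRY and 30 in PRO, a ratio of 7.27 (2.56 to 28.4). The related families miR159 and miR319, which target MYB and TCP factors respectively, went in opposite directions. miR159a-3p stood at 87.1 and 103.3 RPM, 1.19-fold higher (1.09 to 1.29), and miR319b-3p at 35.8 and 21.7, 1.65-fold lower (1.40 to 1.95). Their ratio changed 1.96-fold (1.63 to 2.35), whatever the scaling. The low entries miR159c-3p and miR159d-3p shared counts of 4 and 32 reads, a ratio of 7.76 (2.75 to 30.2). miR396c, which represses growth-regulating factors, was nearly level at 54.8 and 51.1 RPM, with an interval of 0.83 to 1.05, and its sign turned in 4 of the 5 other scalings. The star strand miR396a-3p, just under the minimum, had 85 reads in PRY and 25 in PRO, 3.51-fold lower (2.22 to 5.72).

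No entry of the small RNA machinery list or of the monocot list was counted, against 35.3% of all 102 miRNAs. All 4 of the former at the minimum belonged to miR168, which represses AGO1, and had a median of -0.17. miR168a-5p led both libraries, at 67560 and 60102 RPM, a ratio of 0.890 (0.887 to 0.893) that turned above 1 in 3 of the 5 other scalings. miR162-3p, which targets DCL1, had 2 and 12 reads, a ratio of 5.82 (1.30 to 53.5). In the monocot list, with 3 entries at the minimum and a median of -0.58, miR444a, which targets MADS-box factors, was 1.51-fold lower (1.33 to 1.71), at 58.5 and 38.7 RPM. miR1432-5p stood at 13.9 RPM in both libraries, a ratio of 1.00 (0.79 to 1.26). miR529-5p, which shares SPL targets with miR156, had 14 reads in PRY and 2 in PRO, 7.22-fold lower (1.66 to 65.5). miR528, also known from monocots, was placed in the copper-responsive list, where its 2 entries at the minimum were counted as higher.

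Nutrient families were all below the minimum. miR395, which targets ATP sulfurylase and a sulfate transporter and accumulates at low sulfate in plants, was almost without reads in PRY. All 14 of its 3p entries and 9 of its 5p entries with any read were above their PRY level. Of the 3p entries, 11 had 62 reads in PRO against 1 or 2 in PRY, and they share reads, so they amount to about a single measurement. For miR395e-3p the ratio was 60.1 (10.4 to 2412). In RefSeq annotation of the B73 assembly Zm-B73-REFERENCE-NAM-5.0, 8 MIR395 genes (d, f, g, e, i, h, b, a) follow each other in the order of listed genes, and so do 4 others (k, l, m, c). The 3p entries of the first run all had 62 reads in PRO, the shared value above, which cannot be assigned to any of its genes. Those of the second had 0 or 1. A run of 3 genes (n, o, p) held 3p entries from 0 to 62 reads, and the 5p entries of the first run had 0 to 51, so counts did not simply follow the run. miR827-3p, which targets SPX-domain transcripts in phosphate homeostasis, had 45 and 78 reads, a ratio of 1.68 (1.15 to 2.48). miR399 entries, which target the phosphate regulator PHO2, had 5 reads at most.

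A wider look below the minimum took the known entries with 20 or more reads in PRY or PRO, a limit chosen after the values were seen. There were 61 such entries with 35 distinct sets of values. In 25 of them, from miR395, miR172, miR398, miR159 and miR171, the interval of the ratio lay wholly above 2. These 25 held 10 distinct sets of values, 6 of them of miR395, and with 0 to 4 reads in PRY they passed the limit through PRO alone, so their direction was fixed by that choice. In 2, both miR396 star strands, the interval lay wholly below a ratio of 1:2. Among the 25 was miR172c-5p with 40 reads in PRO and 0 in PRY, at least 12.9-fold higher against a floor of 3 reads.

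Of 13 candidate miRNAs at the minimum, 3 were higher, 1 was lower and 9 were neither, against 18.6% higher and 16.7% lower of all 102. These counts held under all 6 scalings, but the other scalings all raise PRO and could not end the 3 higher calls. With the library total 10 were below their PRY level, with a median of -0.57 against -0.10 for known miRNAs. With the total over distinct entries 7 were below it, with a median of -0.09. The most abundant candidate stood at 286 RPM in PRY and 1365 in PRO, 4.78-fold higher (4.59 to 4.97). The next in abundance was 2.93-fold lower (2.69 to 3.19), at 194 and 66.1 RPM. The 9 that were neither lay between -0.85 and -0.41, with all their values under 50 RPM. Another higher candidate had 5 reads in PRY and 124 in PRO, a ratio of 24.0 (10.03 to 75.4). The last was listed at 0 in PRY and had 180 reads in PRO. Both of these passed the minimum through PRO alone, so their direction was fixed by that choice. No candidate had a listed count between 1 and 4 reads in any of the 4 libraries, while known miRNAs were listed down to 1 read. A candidate's 0 may therefore not be a count of 0, and no fold is given against it. Of 255 candidates, 50 were listed in both PRY and PRO, 80 in PRY alone, 38 in PRO alone and 87 in neither. Those listed in PRY alone had a median of 9 reads, and those in PRO alone a median of 8, close to the lowest listed count of 5. Of 321 known miRNAs, 183 were listed in both libraries, 11 in PRY alone, 34 in PRO alone and 93 in neither. Those in PRY alone had a median of 1 read and those in PRO alone a median of 2, close to the lowest possible count.

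The levels in SR and CR show where the primary root libraries lie within the series. With the library total, PRY was the highest of the 4 libraries for 48 of the 102 miRNAs and the lowest for 30. PRO was the highest for 33 and the lowest for 8. SR, at 7 days, lay between PRY and PRO for 44 of the 102, and CR, of the same age as PRO, for 30. Among the 19 higher and 17 lower miRNAs, SR lay between for 18 and 6, and CR for 14 and 7. A wide gap between PRY and PRO, by which these were chosen, leaves more room between them, so nothing is read from the excess. miR172a stood at 50.2 RPM in SR and 24.6 in CR, between its values in PRY and PRO. miR528b-5p stood at 4439 RPM in SR but at 479 in CR, below its 1203 in PRY. miR408b-5p was higher in SR, at 46.8 RPM, than its 27.1 in PRO. With the library total, miR156a-5p stood at 8308 and 4099 RPM in SR and CR, both below its 9686 in PRO. With TMM factors its SR level lies above its PRO level. miR167h-3p in CR, at 176 RPM, was close to its 185 in PRY and above its 53.3 in PRO. These are levels in single libraries of other root types, and age and root type cannot be told apart in them. The ranks over the 4 libraries were taken with the library total alone. TMM factors ran from 0.738 in SR to 1.23 in CR, so another scaling can change these orders.

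**Figure D4:**
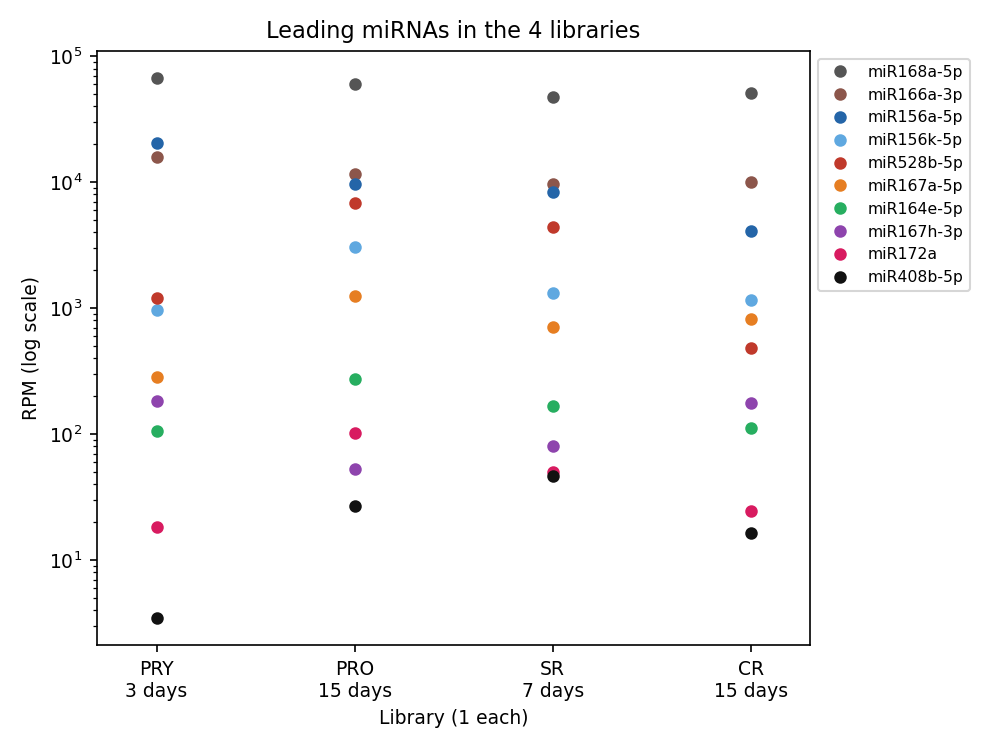
Levels of 10 leading miRNAs (points, RPM on a log scale) in the 4 libraries, 1 library each, with seedling age under each name. miR528b-5p lies at 6830 RPM in PRO and 479 in CR, both at 15 days, while miR168a-5p stays between 47529 and 67560.

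The balance of higher and lower miRNAs depended on how the libraries were scaled. Known and candidate entries summed over distinct values came to 335176 RPM in PRY and 235525 in PRO, counting shared reads repeatedly. Scaled to that sum, 29 miRNAs were higher and 6 lower, and with edgeR TMM factors 29 were higher and 7 lower. The 10 that these scalings add are miR167e-5p to miR167j-5p, miR171h-5p, miR171k-5p, miR390a-5p and miR390b-5p. All 19 higher miRNAs were counted as higher under each of the 5 other scalings, which all raise PRO and could not end those calls. Of the 17 lower ones, 6 were counted under all 6 scalings: miR169o-5p, miR167h-3p, miR167i-3p, miR160b-3p, miR160g-3p and the candidate at 194 RPM in PRY. miR156b-3p was counted under 5 of them, 8 miR156 entries of the abundant block under 2, and miR169a-3p and miR169b-3p with the library total alone. The block of miR156 stayed below its PRY level in all 6, with miR156a-5p between -1.08 and -0.57.

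**Figure D5:**
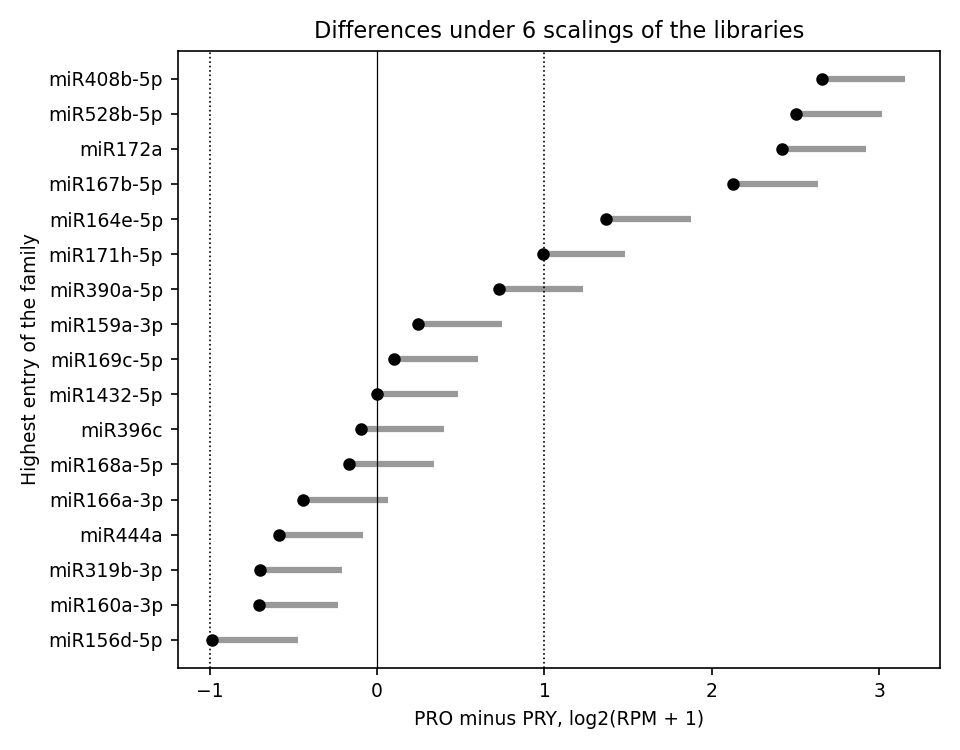
Difference between PRO and PRY in log2(RPM + 1) for the highest entry of each family at the minimum, with the library total (points) and its range over 6 scalings (bars). Dotted lines mark 1 and -1. miR172a stays between 2.42 and 2.92 and miR168a-5p crosses 0.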

How the data were processed

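Small RNA of 18 to 30 nt was size-selected on a gel and went through adapter ligation and 18 cycles of PCR before Illumina sequencing, per the labels' protocols. The authors deposited 1 normalized value per miRNA and library, which the header calls TPM. These deposited values were treated as RPM, because 100% of them were whole multiples, within 0.01 read, of a step that gave a library total. For the aligner, the miRNA reference release and the candidate predictor, the name and version were not given in the sources used here. Reads copied by PCR are not separate molecules, and the intervals hold counting error alone. Intervals are exact conditional binomial, or log-normal for ratios of ratios. With 1 library per group edgeR's quasi-likelihood test has no spread to estimate, and no p-value is given. The script that applies the size rule was run on simulated counts with known differences. Scalings used the library total, miRNA totals, edgeR 4.0.16 TMM factors and DESeq2 1.42.0 size factors under R 4.3.3. Other steps used Python 3.11.15, pandas 2.3.3, numpy 2.4.6, scipy 1.17.1 and matplotlib 3.10.9.

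Members, the 8 lists, the size rule and the rule for named miRNAs were chosen with earlier results of these data known. Named were up to 12 counted entries per direction at 50 or more RPM, the highest entry of each listed family, the 5 highest entries and both arms of counted hairpins. Others, such as pairs compared within a library, entries set beside those of their family and the low entries, were chosen after their values were seen. Mature sequences were not used here.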

Additional observations from a re-analysis of the deposited data

Results flagged for a closer look

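A candidate miRNA that was listed at 0 in both PRY and PRO stood at 33.2 RPM in CR, which lies outside the comparison of primary roots. It was the only one of the 576 entries that reached 10 RPM in SR or CR without reaching it in PRY or PRO.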

How the results depend on the processing

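No paired analysis was possible because each group had 1 library. With the library total, 19 miRNAs were higher, 17 lower, and the median was -0.17. The counts and median became 29, 6 and 0.33 with the total over distinct miRNA entries, and 29, 7 and 0.24 with TMM factors. Without miR156 in the miRNA total, 7 were lower and the median was -0.020, and with the highest entry per family as total, 7 were lower and the median was 0.051. No filter gave 58 higher and 52 lower among 396. A minimum of 50 RPM gave 11 lower and a median of 0.11 among 63. Counting the highest entry per family and arm gave 7 higher, 3 lower and a median of -0.048 among 26. DESeq2 factors (21 and 15), a pseudocount of 10 (18 and 13), identical entries counted once (14 and 13) and known miRNAs only (16 and 16) kept both counts within 1.5 times. Of 25 named entries counted as higher or lower, 17 stayed counted under all scalings and that pseudocount, and 8, all of miR156, did not. The 5 other scalings all raise PRO, so under them only entries counted as lower could lose their call. Only entries below their PRY level, counted or not, could change sign. No counted entry changed sign, whereas miR166a-3p, miR168a-5p, miR168b-5p and miR396c, none of them counted, did under at least 1 scaling. Entries under 10 RPM rest on about 100 reads or fewer, and related entries share reads.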
